A study of Irpex lacteus with 14 samples.

Results

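In Irpex lacteus, a white-rot fungus of the order Polyporales, 36 genes had their highest transcript levels on wheat straw and on cellulose and lower levels on aspen, pine and maltose. They were found among 967 genes (3.72%) for which the deposited table held a normalized read count of at least 10 on at least 2 of the 5 substrates. The members were chosen by these same measured values: a gene belonged when the lower of its wheat straw and cellulose values exceeded the highest of its aspen, pine and maltose values by at least 0.5 on the log2 scale. That gap is called the margin below. Since the choice used these levels, the heights of the genes on straw and cellulose are a description and not a finding, and no p-value is given for them. The filter on low values removed 0 members.

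All cultures were of strain CCBAS Fr. 238 617/93, kept for 3 days at 30 °C in 100 ml of shaken liquid medium. The wheat straw, cellulose and pine media held 15 g of solid and 2.5 g of maltose per litre, the aspen medium held 15 g of wood and a maltose level that cannot be read in the label, and the maltose medium held 20 g of maltose per litre and no solid. The cellulose was Avicel, a microcrystalline powder. Straw and pine were sieved below 2 mm and aspen was milled to 1 mm, so particle size and wood species cannot be told apart between the woods. Likewise the amount of free sugar and the presence of a solid cannot be told apart between maltose and the other media. Each substrate had 3 libraries except pine, with 2, and the table gave 1 authors' value per gene and substrate. No spread between libraries could be computed, the depth of the libraries is unknown, and every difference is a size without a test. A gene is called higher or lower when 2 values differ by at least 1 on the log2 scale (2-fold). The median of all 967 genes was 8.61 on wheat straw, 8.52 on cellulose, 8.74 on aspen, 8.89 on pine and 8.22 on maltose. The median difference per gene from maltose was 0.09 on straw, 0.03 on cellulose, 0.10 on aspen and 0.43 on pine, and these shifts are the background for what follows.

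White-rot fungi grow on plant cell walls by secreting enzymes that cut cellulose and hemicelluloses into sugars, together with oxidative enzymes that attack lignin. In many fungi the genes for such enzymes are held low while an easily used sugar is present and are switched on by small sugars released from the polysaccharides. Avicel is almost pure cellulose, wheat straw is a grass wall rich in cellulose and xylan, aspen is a hardwood and pine a softwood, and wood generally carries more lignin than straw. The genes of this table are identified by protein numbers of the MycoCosm portal only, without names or functions, so none of the 36 is assigned to any of these enzyme classes.

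Taken over the 36 genes, the median level was 11.18 on wheat straw, 10.89 on cellulose, 8.76 on aspen, 8.44 on pine and 6.14 on maltose. On straw the genes ran between 6.40 and 13.38, on cellulose between 6.57 and 13.92, on aspen between 3.97 and 11.33, on pine between 4.24 and 11.59, and on maltose between 0.30 and 11.37. Against the median of all genes, they stood 2.56 higher on straw and 2.38 higher on cellulose, 0.02 higher on aspen, 0.44 lower on pine and 2.08 lower on maltose. The widest range was on maltose, where 9 members lay below 5, 18 between 5 and 8, and 9 at 8 or above. The choice keeps straw and cellulose from being the lowest substrate of a member, so the lowest was aspen for 4 members, pine for 5 and maltose for 27 (75%). Over all 967 genes, where any substrate could be lowest, it was aspen for 15.6%, pine for 9.51% and maltose for 29.3%.

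**Figure D1:**
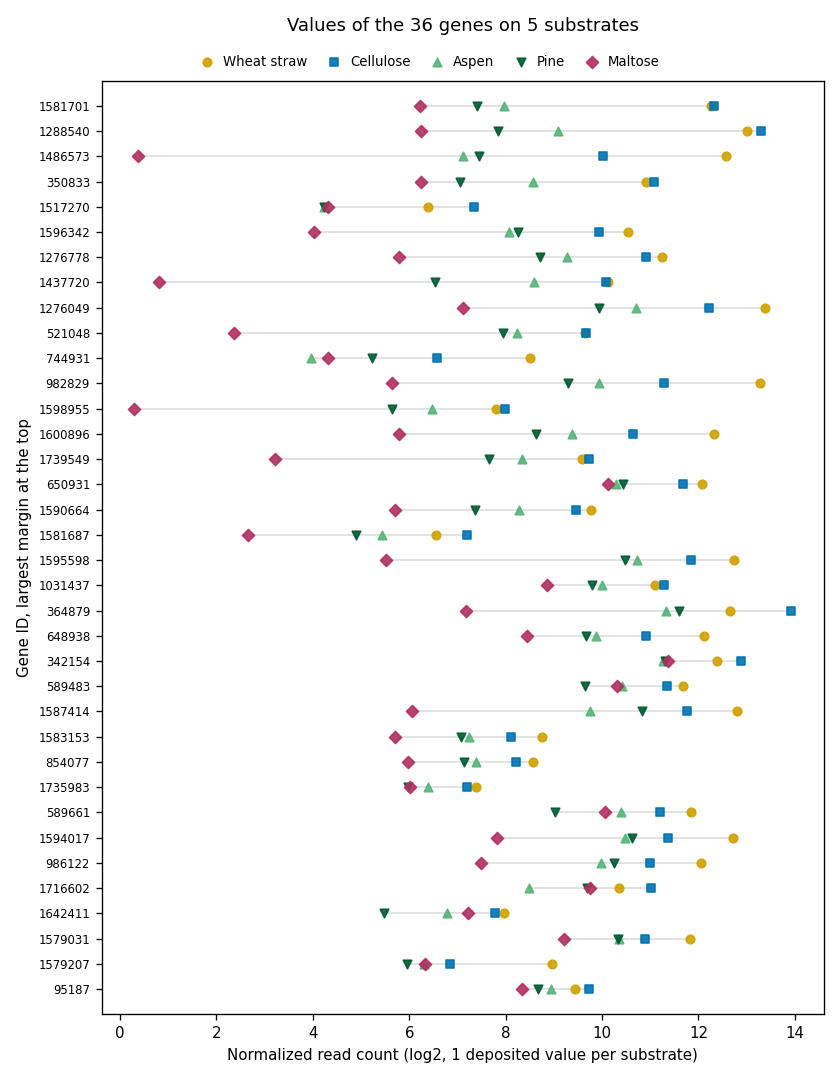
Normalized log2 read count (x axis) of the 36 genes (y axis, gene ID, in order of the margin) on wheat straw, cellulose, aspen, pine and maltose, with 1 deposited value per gene and substrate and no error available. The straw and cellulose points lie at the right of every row, and the maltose points spread widest, between 0.30 and 11.37.

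Added up on the linear scale, the 36 genes held 5.84% of the summed normalized counts of the 967 genes on wheat straw, 4.88% on cellulose, 1.81% on aspen, 0.919% on pine and 0.692% on maltose. These shares refer to the table, which is not assumed to cover the genome. No member was among the 10 most abundant genes of the table on any substrate. Among the 100 most abundant there were 9 members on straw, 5 on cellulose and 0 on aspen, on pine and on maltose. The leading member by level was gene 1276049 on straw (0.530% of the table), gene 364879 on cellulose (0.863%), on aspen (0.182%) and on pine (0.122%), and gene 342154 on maltose (0.176%). The 5 highest members together made up 36.5% of the sum of the 36 genes on straw, 49.1% on cellulose, 38.3% on aspen, 44.9% on pine and 66.8% on maltose. The sum therefore rested on fewer genes on maltose than on the other substrates.

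**Figure D2:**
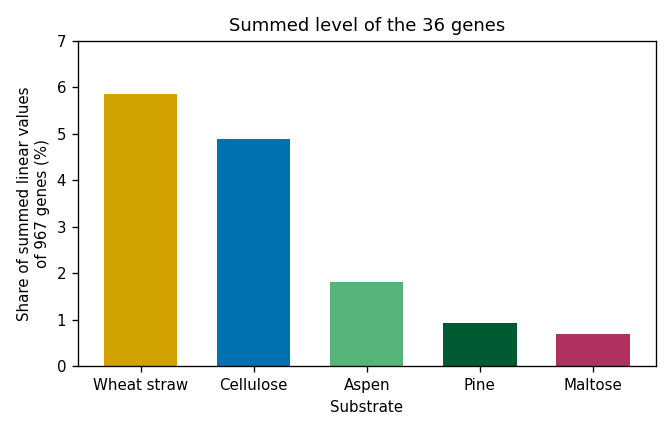
Share of the summed linear normalized counts of 967 genes held by the 36 genes (y axis, percent) on each substrate (x axis), 1 value per bar with no error available. The bars stand at 5.84% on wheat straw and 4.88% on cellulose, against 1.81% on aspen, 0.919% on pine and 0.692% on maltose.

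In 5 members the margin reached 2 or more, that is at least 4-fold above every other substrate. Gene 1581701 had the largest, at 4.29 (19.5-fold), with 12.26 on wheat straw, 12.32 on cellulose, 7.98 on aspen, 7.40 on pine and 6.23 on maltose. Gene 1288540 followed with a margin of 3.93 and values of 13.01 on straw, 13.30 on cellulose, 9.08 on aspen, 7.84 on pine and 6.25 on maltose. Both genes were nearly level between straw and cellulose, with straw minus cellulose at -0.06 and -0.29, and their levels on the woods lay closer to maltose than to either. Gene 1486573 reached 12.58 on straw, 10.02 on cellulose, 7.11 on aspen, 7.45 on pine and 0.37 on maltose, a margin of 2.57. Its maltose value is close to the bottom of the table, so its difference from maltose depends on the value added before the logarithm: straw minus maltose was 12.21 as deposited and 9.36 with 8 added to the linear values. Gene 350833 had 10.91 on straw, 11.08 on cellulose, 8.57 on aspen, 7.05 on pine and 6.24 on maltose, a margin of 2.34. Gene 1517270, with 6.40 on straw, 7.35 on cellulose, 4.23 on aspen, 4.24 on pine and 4.32 on maltose, had a margin of 2.08 and was the only one of the 5 whose woods did not exceed maltose. Its margin was 1.72 with 8 added and 1.69 with centred columns, under 4-fold in both, whereas the other 4 genes kept margins above 2 in each alternative.

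The next 7 members by margin lay between 1.34 and 1.69. Gene 1596342 had 10.53 on straw, 9.94 on cellulose, 8.08 on aspen, 8.25 on pine and 4.01 on maltose. Gene 1276778 had 11.25 on straw, 10.91 on cellulose, 9.28 on aspen, 8.72 on pine and 5.80 on maltose. Gene 1437720 had 10.13 on straw, 10.09 on cellulose, 8.58 on aspen, 6.53 on pine and 0.80 on maltose. In these 3 genes the levels formed 3 steps, with straw and cellulose at the top, the woods in the middle and maltose at the bottom. Gene 1276049 followed the same order at a higher level, with 13.38 on straw, 12.21 on cellulose, 10.71 on aspen, 9.93 on pine and 7.12 on maltose. So did gene 521048, with 9.66 on straw, 9.67 on cellulose, 8.24 on aspen, 7.94 on pine and 2.36 on maltose, and gene 982829, with 13.28 on straw, 11.28 on cellulose, 9.94 on aspen, 9.29 on pine and 5.65 on maltose. Gene 744931 did not: it had 8.51 on straw and 6.57 on cellulose, against 3.97 on aspen, 5.22 on pine and 4.31 on maltose, which puts aspen below maltose.

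Counts over the 36 genes follow from the choice for every contrast that sets straw or cellulose against the other substrates, and nothing is read from them. Straw was 2-fold or more above aspen for 34 members (15.4% of all 967 genes), above pine for 34 (8.69%) and above maltose for 34 (24.5%). Cellulose was 2-fold or more above aspen for 26 members (8.79% of all genes), above pine for 31 (11.7%) and above maltose for 34 (12.5%). The 2 members short of 2-fold between straw and maltose were genes 1716602 and 1642411, with differences of 0.60 and 0.73. On cellulose they were genes 1642411 and 1579207, with 0.54 and 0.52. A margin of 1 or more was reached by 23 members (63.9%).

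Which of wheat straw and cellulose stood higher was not used directly in the choice, which took only the lower value. A gene with straw or cellulose below maltose cannot be a member, however. Straw was 2-fold or more below maltose for 19.9% of all genes and cellulose for 3.83%. The shares of all genes given here are therefore not a background free of the choice. How much of the balance between straw and cellulose follows from it was not tested. Straw was 2-fold or more above cellulose for 10 members (27.8%, against 20.4% of all genes) and 2-fold or more below it for 1 member (2.78%, against 18.6% of all genes). The other 25 lay within 2-fold. The median of straw minus cellulose was 0.34 over the members and 0.04 over all genes. The balance of 10 and 1 became 6 and 1 with quantile normalization, where the members' median difference was 0.06, and 8 and 2 with columns centred on their medians.

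The 10 straw-leaning members were led by gene 1486573, described above, with a difference of 2.56 (5.89-fold). Gene 1579207 had 8.97 on straw and 6.84 on cellulose, against 6.30 on aspen, 5.95 on pine and 6.32 on maltose, so its straw value stood apart while its cellulose value lay only 0.52 above maltose. Genes 982829 and 744931 differed between straw and cellulose by 2.00 and 1.95. Gene 1600896 had 12.33 on straw, 10.65 on cellulose, 9.38 on aspen, 8.63 on pine and 5.80 on maltose, a straw minus cellulose difference of 1.68. In these 5 genes the straw level was between 3.20-fold and 5.89-fold that on cellulose. The remaining 5 of the 10 were genes 1594017, 648938, 1276049, 986122 and 1587414, with differences between 1.03 and 1.35. Gene 1587414, one of the 5 highest members on straw, had 12.79 on straw, 11.76 on cellulose, 9.76 on aspen, 10.83 on pine and 6.05 on maltose. Gene 1595598, another of these 5, had 12.75 on straw, 11.84 on cellulose, 10.73 on aspen, 10.48 on pine and 5.51 on maltose, and its straw value was 1.87-fold its cellulose value.

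In the opposite direction only gene 364879 passed 2-fold, with 12.65 on straw, 13.92 on cellulose, 11.33 on aspen, 11.59 on pine and 7.17 on maltose, a straw minus cellulose difference of -1.27. It was the most abundant member on cellulose. Gene 1517270 came next, at -0.95, followed by gene 1716602 at -0.67, gene 1581687 at -0.63 and gene 342154 at -0.51. Gene 1581687 was a low gene, with 6.56 on straw, 7.19 on cellulose, 5.43 on aspen, 4.90 on pine and 2.65 on maltose. Gene 342154 was a high one and nearly level outside straw and cellulose, with 12.38 on straw, 12.89 on cellulose, 11.26 on aspen, 11.31 on pine and 11.37 on maltose.

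**Figure D3:**
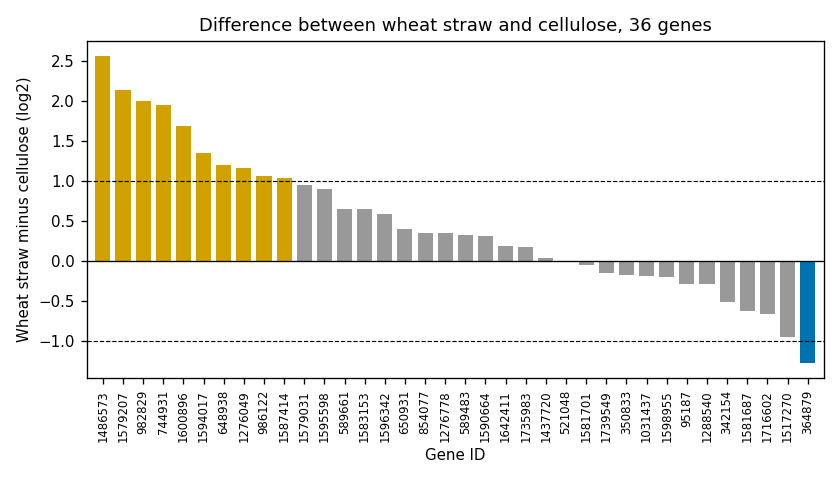
Wheat straw minus cellulose (y axis, log2 difference of the 2 deposited values) for each of the 36 genes (x axis, gene ID), with dashed lines at the 2-fold limits and no error available. Yellow bars mark the 10 genes higher on straw, led by gene 1486573 at 2.56, and the blue bar marks gene 364879 at -1.27.

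The order of aspen, pine and maltose among themselves was not used directly in the choice, which took only the highest of the 3. The choice did require straw and cellulose to exceed maltose. Over all genes, 76 were 2-fold or more above maltose on straw and on cellulose, and 64 on all 4 solids. The shares of all genes given below are therefore not a background free of the choice. Aspen was 2-fold or more above maltose for 25 members (69.4%, against 21.0% of all genes) and below it for 1 (2.78%, against 6.41%). Pine was 2-fold or more above maltose for 23 members (63.9%, against 32.2% of all genes) and below it for 2 (5.56%, against 9.41%). At 4-fold, 19 members were higher on aspen than on maltose (9.20% of all genes) and 16 on pine (13.9%). The median of aspen minus maltose was 2.40 over the members and 0.10 over all genes, and that of pine minus maltose was 1.47 and 0.43. With centred columns the members' medians were 1.88 on aspen and 0.81 on pine, against -0.42 and -0.24 for all genes, and the pine count became 16 higher and 4 lower. Aspen and pine are here set against the same maltose value, so these are not independent comparisons.

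By these limits 23 members (63.9%, against 16.4% of all genes) were above maltose on both woods, 2 (5.56%, against 4.55%) on aspen alone, 0 (against 15.7%) on pine alone and 11 (30.6%, against 63.3%) on neither. Being above maltose on both woods was shared with genes outside the module. Over all genes, 64 were 2-fold or more above maltose on all 4 solids, and the 23 members are 35.9% of them. Of the 76 genes above maltose on straw and on cellulose, 33 were members. The 23 members above maltose on both woods are not the 23 genes with a margin of 1 or more, with which they have 17 in common. Their levels were graded: the median level was 12.05 on straw, 10.88 on cellulose, 9.08 on aspen, 8.25 on pine and 5.80 on maltose. On the linear scale their aspen level was a median 40.3% of the lower of straw and cellulose, between 5.13% in gene 1581701 and 69.1% in gene 1579031. Their pine level was a median 30.4%, between 2.78% in gene 1288540 and 68.4% in gene 1579031. The largest steps between maltose and the higher wood on the deposited scale were 7.79 in gene 1437720, 7.08 in gene 1486573 and 6.18 in gene 1598955. All 3 genes had maltose values under 1, and with 8 added to the linear values their steps came to 5.33, 4.30 and 3.40. Gene 1437720 then still ranked 1 among the members, but genes 1486573 and 1598955 ranked 6 and 12, behind genes such as 1595598 with 4.99. Gene 1598955 had 7.79 on straw, 7.99 on cellulose, 6.48 on aspen, 5.65 on pine and 0.30 on maltose, the lowest maltose value of the table.

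The 11 genes above maltose on neither wood had median levels of 9.45 on straw, 9.73 on cellulose, 8.48 on aspen, 8.68 on pine and 8.33 on maltose. Their margins were between 0.50 and 2.08, with a median of 0.82, against a median of 1.25 for the 23 graded genes. The spread between the highest and the lowest of aspen, pine and maltose had a median of 0.61 in these genes and reached 1 or more in 4 of them, with a maximum of 1.76. Their median difference from maltose was 1.37 on straw and 1.26 on cellulose. In the 23 graded genes it was 6.25 on straw and 5.64 on cellulose, but there both the grouping and the choice of members require straw and cellulose to lie well above maltose. They included genes 1517270, 744931, 342154 and 1579207 described above, and also genes 650931, 589483, 1735983, 589661, 1716602, 1642411 and 95187. In 5 of the 36 maltose was above both woods. The largest such gap was 0.45, in gene 1642411, with 7.96 on straw and 7.77 on cellulose, against 6.78 on aspen, 5.47 on pine and 7.23 on maltose. Gene 1716602 had 10.35 on straw, 11.02 on cellulose, 8.48 on aspen, 9.68 on pine and 9.76 on maltose. It was the member lower on aspen than on maltose by 2-fold or more, with a difference of -1.28. The members lower on pine were genes 1642411, at -1.76, and 589661, at -1.04. The 2 genes above maltose on aspen alone were gene 350833, with 2.33 for aspen minus maltose and 0.81 for pine minus maltose, and gene 1031437, with 1.14 and 0.93. Gene 1031437 therefore lay close to the limit on pine.

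**Figure D4:**
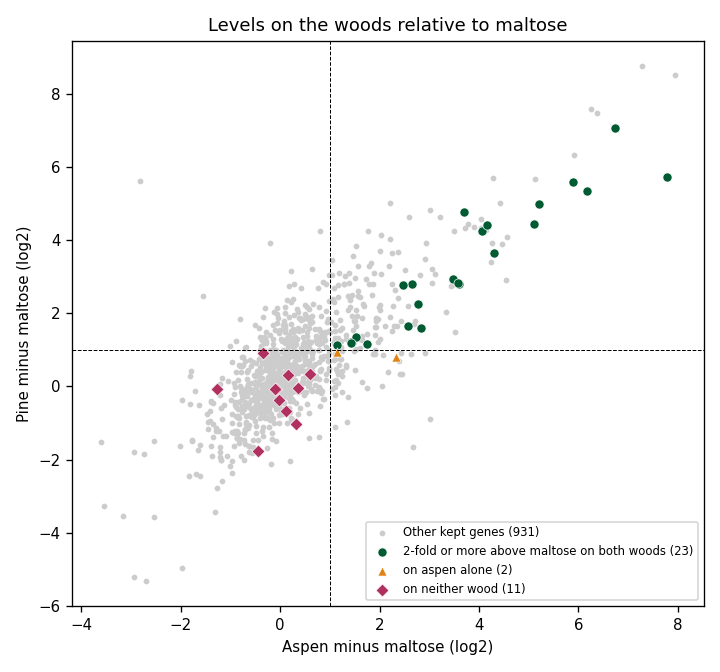
Aspen minus maltose (x axis) against pine minus maltose (y axis), both as log2 differences that share the maltose value, for the 36 genes in colour and the other 931 genes in grey, with dashed lines at 2-fold and no error available. Circles mark the 23 genes above maltose on both woods, triangles the 2 on aspen alone and diamonds the 11 on neither.

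Aspen was above pine by 2-fold or more for 5 members (13.9%, against 7.03% of all genes) and below it for 3 (8.33%, against 20.1% of all genes). The median of aspen minus pine was 0.28 over the members and -0.23 over all genes, and aspen was the higher of the pair, by any amount, for 25 members (69.4%) and for 38.7% of all genes. After quantile normalization the split was 9 and 2, with medians of 0.47 for the members and 0 for all genes. With centred columns it was 6 and 2, with medians of 0.43 and -0.09. The largest aspen excess was 2.06, in gene 1437720, followed by 1.52 in gene 350833 and 1.36 in gene 589661. Gene 589661 had 11.85 on straw, 11.20 on cellulose, 10.39 on aspen, 9.03 on pine and 10.07 on maltose, so pine was its lowest substrate. The largest pine excesses were those of genes 744931, 1716602 and 1587414, at -1.25, -1.20 and -1.07 for aspen minus pine. Among the substrates outside the leading pair, the highest value belonged to aspen for 23 members, to pine for 8 and to maltose for 5. A gene with straw or cellulose below either wood cannot be a member. Over all genes, cellulose was 2-fold or more below pine for 24.7% and below aspen for 14.7%. For straw the shares were 22.0% and 17.2%. The balance of aspen and pine among the members, and the 0 members above maltose on pine alone, are therefore not independent of the choice. How much of them follows from it was not tested. Pine had 2 libraries where aspen had 3, and the effect of this on the values was not tested.

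At the limit of the choice, the members just inside were gene 95187 with a margin of 0.504, gene 1579207 with 0.517, gene 1579031 with 0.533 and gene 1642411 with 0.542. Gene 95187 had 9.45 on straw, 9.73 on cellulose, 8.94 on aspen, 8.68 on pine and 8.33 on maltose, and gene 1579031 had 11.83 on straw, 10.88 on cellulose, 10.35 on aspen, 10.33 on pine and 9.21 on maltose. The genes just outside were gene 1491718 at 0.429, gene 799817 at 0.417, gene 916091 at 0.396 and gene 1478032 at 0.383. Gene 1478032 was high on all solids, with 13.60 on straw, 12.76 on cellulose, 11.96 on aspen and 12.38 on pine, and it stood at 6.04 on maltose. A margin above 0 was found for 68 genes, of which the 36 are 52.9%.

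Over the 5 substrates, members resembled the mean profile of the 36 to different degrees, with Pearson's r between 0.45 (gene 1642411) and 1.00 and a median of 0.95. Each r rests on 5 values, and each member is part of the mean it is set against. Outside the module, the genes most like that mean profile were gene 68727 (r = 0.97), gene 916091 (r = 0.96) and gene 1581637 (r = 0.95). Gene 68727 had 11.11 on straw, 10.45 on cellulose, 10.17 on aspen, 9.72 on pine and 8.07 on maltose, with a margin of 0.28. Gene 916091 had 11.10 on straw, 9.73 on cellulose, 9.33 on aspen, 8.64 on pine and 5.89 on maltose. These 2 genes kept the order of the graded members with a smaller gap between cellulose and aspen. Gene 1581637 was low throughout, with 5.58 on straw, 5.19 on cellulose, 4.95 on aspen, 5.09 on pine and 4.31 on maltose.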

How the data were processed

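Messenger RNA was sequenced from 14 libraries on 5 substrates. Per the file headers, the authors' values are normalized read counts on a log2 scale, 1 for each gene on each substrate. The submitters' processing notes name TopHat2, HTSeq and DESeq (version 1.5); their settings, the genome build, the scaling, any number added before taking logarithms and the way libraries were combined are not stated there or in the labels. Of 1000 rows, 23 repeated another row in full and were dropped, leaving 977 gene IDs, and the filter on low values removed 10. A moderated test on values per library had been planned and could not be fitted to 1 value per substrate, so log2 differences of at least 1 (2-fold) or 2 (4-fold) are counted with no test. The planned enzyme groups could not be filled without gene functions. The members, lists and rules were chosen with earlier results of these data known. Named genes were those with the largest margins, the highest levels or the extreme differences between straw and cellulose, aspen and pine, or maltose and the woods, those next to the limit, and the 3 non-members most like the mean profile. Other IDs, which complete a group, were added after their values were seen. Alternatives were no filter, a stricter filter (log2 of 5), 8 added to linear values, quantile normalization, centred columns, and margins of 0.3 and 1. Python 3.11.15, numpy 2.4.6 and pandas 2.3.3 were used, and the counting was checked on simulated data.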

Additional observations from a re-analysis of the deposited data

How the results depend on the processing

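The number of members was 36 with no filter and with the stricter filter, 34 with 8 added, 31 with quantile normalization (30 of them among the 36) and 36 with centred columns (33 among the 36). It was 43 at a margin of 0.3 and 23 at a margin of 1. The 2 members lost with 8 added were genes 1579207 and 95187. Quantile normalization also put genes 1642411, 1716602, 342154 and 589483 under the margin, and centring put genes 1579207, 1642411 and 1716602 under it. The filters do not change a gene's values, and every member was at least 6.40 on straw and 6.57 on cellulose. Neither filter setting could therefore alter a margin or drop a member. With 8 added, quantile normalization or centred columns, the 36 margins remained above 0, with a lowest value of 0.06. Quantile normalization gave 6 members higher on straw than on cellulose and 9 higher on aspen than on pine. Centring gave 2 members lower on straw than on cellulose and 4 lower on pine than on maltose. The alternatives for aspen against pine, for members below maltose and for members 4-fold above maltose on the woods were added after the data were seen. The other counts of members stayed within 1.5 times. Rescaling moves such counts by construction. No paired analysis was possible because the table holds 1 value per substrate, and for the same reason no library could be left out. Without values per library or depths, the smaller differences cannot be separated from error.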

Other observations

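Fewer genes showed the mirrored pattern. By the same rule turned round, 14 genes had both wheat straw and cellulose at least 0.5 below the lowest of aspen, pine and maltose (16 with quantile normalization and 14 with centred columns). Gene 1437735 led them, with 9.22 on straw, 9.66 on cellulose, 14.16 on aspen, 15.45 on pine and 11.79 on maltose. Gene 1586518 followed, with 8.29 on straw, 9.09 on cellulose, 10.93 on aspen, 10.24 on pine and 10.40 on maltose. Gene 1440015 had 6.98 on straw, 6.70 on cellulose, 9.98 on aspen, 10.18 on pine and 7.96 on maltose. These genes were chosen by their values, so the levels are a description.

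Applied to other pairs, the rule gave 111 genes highest on straw and pine and 42 highest on aspen and pine, against 36 on straw and cellulose. These numbers depended on the scaling more than that of straw and cellulose did. Quantile normalization gave 61, 19 and 31 genes in the same order, and centring gave 83, 16 and 36.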
